A study of Rattus norvegicus with 9 samples.

Results

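The Slc25 family holds the carriers that move metabolites, nucleotides, phosphate, iron and cofactors across the inner membrane of mitochondria. Members were taken as the genes of the deposited FPKM table (FPKM scales fragments to transcript length and library size) whose symbol starts with Slc25a, which gave 37 of 11235 genes. They include the pseudogene Slc25a5-ps9 and the copy Slc25a36l1, and the family's phosphate carrier Slc25a3 was not analysed here. Each of the 37 was at 1 FPKM or more in all 9 libraries and each passed the filter on low counts. Poly(A) RNA of rat kidney was sequenced in 3 groups of 3 libraries, all from wild-type Sprague-Dawley rats of 6 to 8 weeks. The I/R + rapamycin group had 45 min of renal ischaemia (the design text says by clamping of the left renal artery), reperfusion and rapamycin, a drug that blocks mTOR complex 1. The I/R group had the same injury without the drug, and the sham group had a sham operation. The labels disagree on sex (male, or both sexes), on route (intraperitoneal or oral), on dose (1 or 2 mg/kg per day) and on reperfusion time (3 or 7 days), so these are unsettled for the sequenced kidneys. The label that gives gavage has it start 1 day before surgery, so dosing may have begun before the injury. Whether the 3 libraries of a group are separate animals is not stated in the labels, so the p-values reflect library-to-library spread, which may be technical.

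Mitochondrial carriers are small proteins built of repeats of one transport fold, and each exchanges or co-transports a narrow set of compounds. Cells of the proximal tubule, the kidney segment that reabsorbs most filtered solutes, depend on mitochondrial ATP, and they carry out ammonia formation, fatty acid oxidation and gluconeogenesis, all of which need carriers. Total counts ranged from 44582251 to 60538627 per library. The labels name renal tubular cells as well as kidney tissue. Markers of other kidney cells were present in all libraries, and the summed library-size-scaled counts (CPM) of several lists separated groups. The sum of 5 podocyte genes was 423 to 593 in I/R + rapamycin, 452 to 636 in I/R and 686 to 702 in sham libraries, so both other groups lay below sham. The sum of 2 measured genes of the distal convoluted tubule was 272 to 441 in I/R + rapamycin, 336 to 511 in I/R and 483 to 607 in sham libraries, and that of 6 endothelial genes was 397 to 452, 440 to 488 and 461 to 526 CPM in the same groups. In both lists the treated libraries lay below all sham libraries. The sum of 10 proximal tubule genes was 14500 to 17200 in I/R + rapamycin, 17300 to 21400 in I/R and 15900 to 19300 in sham libraries. I/R + rapamycin and I/R did not overlap, by a small margin. The sums for thick ascending limb, principal cells, intercalated cells, macrophages and fibroblasts overlapped between all groups. In such bulk samples fewer cells of a type and less RNA per cell cannot be told apart, and the part of cell makeup in the results below was not tested.

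Promoter windows are shown for 3 members: Slc25a25, which varied most between libraries, Slc25a35, which had the smallest p when treated kidneys were set against sham, and Slc25a5, the most abundant. Each holds 250 bases before and 50 bases after the start given by RefSeq (build GRCr8), 5′ to 3′ on the gene's strand. Capitals mark matches, on either strand, to the CRE half-site TGACG, the CCAAT box CCAAT, the GC box GGGCGG, the TATA box TATAAA and the E-box CACGTG. The windows lie at chr3:36116532-36116831 (minus strand), chr10:54172115-54172414 (plus strand) and chrX:120897366-120897665 (plus strand).
Slc25a25: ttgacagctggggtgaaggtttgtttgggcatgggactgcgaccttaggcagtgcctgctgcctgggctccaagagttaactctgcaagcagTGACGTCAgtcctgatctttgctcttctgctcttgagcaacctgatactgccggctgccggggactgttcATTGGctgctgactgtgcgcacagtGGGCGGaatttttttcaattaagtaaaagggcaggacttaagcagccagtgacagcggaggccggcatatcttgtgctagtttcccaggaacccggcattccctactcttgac
Slc25a35: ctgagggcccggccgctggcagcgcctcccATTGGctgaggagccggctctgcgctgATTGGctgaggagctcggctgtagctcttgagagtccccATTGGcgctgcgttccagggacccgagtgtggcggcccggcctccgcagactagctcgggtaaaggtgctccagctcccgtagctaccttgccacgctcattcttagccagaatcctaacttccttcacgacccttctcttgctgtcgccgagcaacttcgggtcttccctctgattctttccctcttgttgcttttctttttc
Slc25a5: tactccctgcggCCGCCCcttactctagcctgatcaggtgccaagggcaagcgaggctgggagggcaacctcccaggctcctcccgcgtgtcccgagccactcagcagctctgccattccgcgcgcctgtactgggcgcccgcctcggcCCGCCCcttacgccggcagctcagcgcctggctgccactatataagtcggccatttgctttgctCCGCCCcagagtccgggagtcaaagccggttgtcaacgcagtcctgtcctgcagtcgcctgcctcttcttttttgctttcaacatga

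In the Slc25a25 window the half-site was found on both strands, overlapping, from 158 bases before the start. This start lies 23231 bases inside the outer end of the RefSeq gene, so the window belongs to 1 of several starts. Of 28 members with a window, 8 held the half-site (28.6%), against 21.2% of 33469 RefSeq windows. The CCAAT box stood in 60.7% of the members' windows and 37.5% of all windows, and the GC box in 75.0% and 33.1%. The TATA box stood in 7.14% and 14.2%, and the E-box in 7.14% and 6.42%. Members were limited to 1 window per symbol and to genes at 1 FPKM or more in all 9 libraries. The set of all windows was limited in neither way, so these shares are not strictly alike. The Slc25a35 window held 3 CCAAT matches and the Slc25a5 window 3 GC box matches. A match describes letters in the window and does not show a bound site.

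The ADP/ATP carriers, which exchange mitochondrial ATP for cytosolic ADP, were the most abundant members. Slc25a5 was at 585, 572 and 535 FPKM in I/R + rapamycin, 466, 646 and 654 FPKM in I/R, and 575, 627 and 625 FPKM in sham libraries. The groups overlapped, and I/R 1 was the lowest library. Slc25a5 made up 30.8% to 38.3% of the summed FPKM of all members, and the sum itself ranged from 1514 to 1787 FPKM. Slc25a4 was at 186, 176 and 167 FPKM in I/R + rapamycin, 144, 178 and 175 FPKM in I/R, and 168, 173 and 167 FPKM in sham libraries. Neither ADP/ATP carrier had an adjusted p under 0.5 in any comparison. The pseudogene Slc25a5-ps9 was listed at 18.8 to 25.3 FPKM; it is near-identical to its parent, and how reads were divided between them is not given in the sources used here, so its values are uncertain.

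Slc25a11 and Slc25a10 of the dicarboxylate group were next in level. The oxoglutarate carrier Slc25a11, part of the malate-aspartate shuttle, was at 128, 136 and 116 FPKM in I/R + rapamycin, 114, 121 and 125 FPKM in I/R, and 115, 119 and 114 FPKM in sham libraries. The dicarboxylate carrier Slc25a10, which exchanges malate or succinate for phosphate, was at 115, 121 and 99.0 FPKM in I/R + rapamycin, 110, 124 and 124 FPKM in I/R, and 97.8, 89.7 and 113 FPKM in sham libraries. Both overlapped between all groups. The citrate carrier Slc25a1, which exports citrate for lipid synthesis, averaged 43.8 ± 3.01 FPKM in I/R + rapamycin, 40.0 ± 3.51 FPKM in I/R and 38.3 ± 1.81 FPKM in sham (SD, n = 3 each). The calcium-regulated ATP-Mg/phosphate carrier Slc25a23 was at 69.4, 77.1 and 78.2 FPKM in I/R + rapamycin, 85.1, 72.6 and 60.0 FPKM in I/R, and 80.2, 66.8 and 75.8 FPKM in sham libraries. Over all 37 members the mean level had a median of 13.3 FPKM, with 4 members above 100 FPKM and 8 under 5 FPKM. The lowest were Slc25a36l1, the oxodicarboxylate carrier Slc25a21 and the ATP-Mg/phosphate carrier Slc25a24, with means of 1.51, 2.05 and 2.27 FPKM over the 9 libraries.

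**Figure D1:**
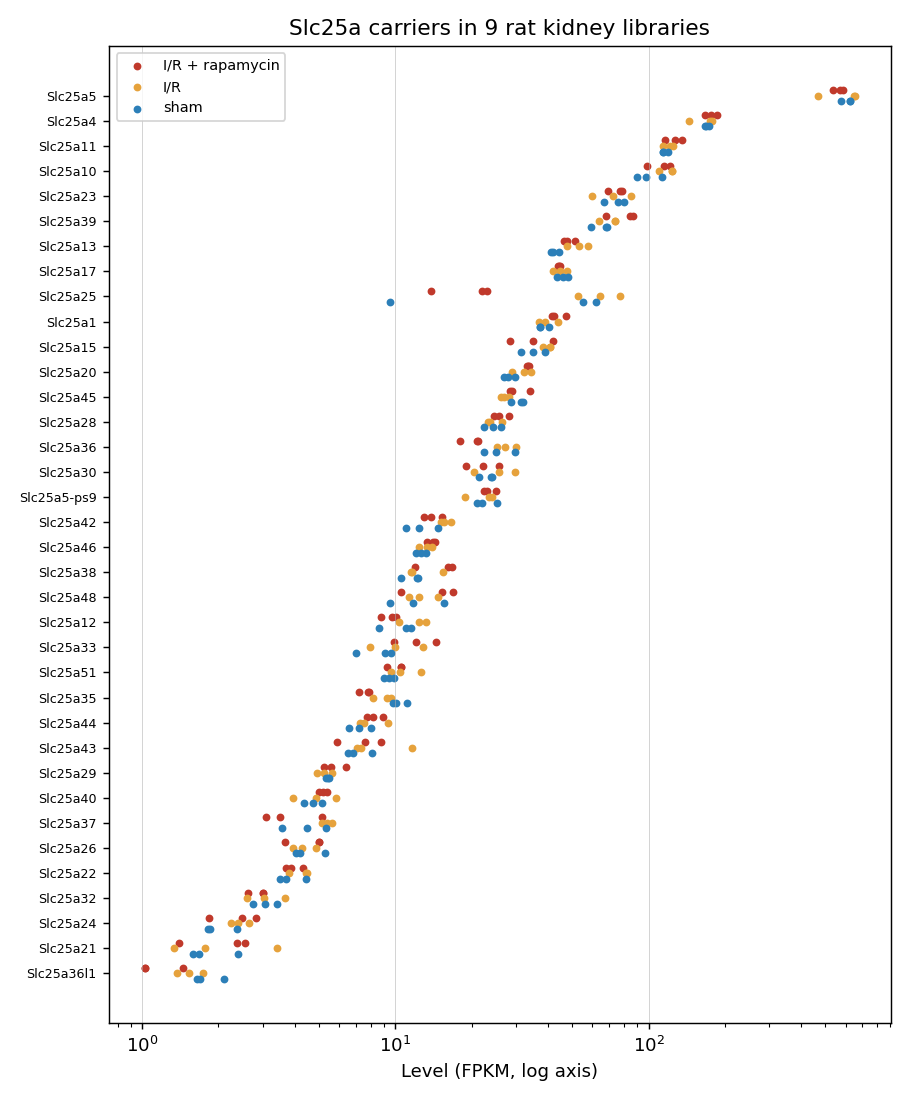
Level of 36 Slc25a members (FPKM, log axis) in the 9 libraries, ordered by mean; each point is 1 library, coloured by group. Slc25a25 spreads from 9.52 to 76.9 FPKM, while Slc25a5 lies between 466 and 654 FPKM.

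The spread of the members between libraries was close to that of the whole table, with a median ratio of the highest to the lowest of the 9 libraries of 1.43, against 1.48 over all genes. The ratio was under 1.5 for 23 of 37 members (62.2%), against 52.3% of all genes. The highest library was 2 times the lowest or more for 4 of them, against 16.6% of all genes of the table. The ratio was 8.08 for Slc25a25, 2.54 for Slc25a21, 2.07 for Slc25a33 and 2.06 for Slc25a36l1. The peroxisomal cofactor carrier Slc25a17 had the smallest ratio, 1.15.

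Slc25a25, which carries ATP-Mg in exchange for phosphate and is regulated by calcium, was the member with the widest spread. Its level was 22.9, 21.9 and 13.8 FPKM in I/R + rapamycin libraries, 52.5, 76.9 and 64.5 FPKM in I/R libraries, and 55.2, 62.2 and 9.52 FPKM in sham libraries. All 3 I/R + rapamycin libraries were below all 3 I/R libraries, and sham 3 was below every other library. The fitted log2 fold change of I/R + rapamycin against I/R was -1.66 (SE 0.646), and it did not pass edgeR's quasi-likelihood test with Benjamini-Hochberg adjustment over all genes (adjusted p = 0.28). All 9 libraries share one estimate of the spread, so sham 3 enters this test too. Without sham 3 the same log2 fold change was -1.66 (SE 0.233) and passed (adjusted p = 0.0372), and in a fit of the 6 libraries compared it was -1.66 (SE 0.245, adjusted p = 0.0866). With any other single library left out it did not pass (adjusted p of 0.273 to 0.559 by edgeR). Sham 3 was the extreme library for Slc25a25, so a pass without it is no independent support. Against sham, I/R + rapamycin was at -1.06 (SE 0.637, adjusted p = 0.516), and at -1.54 (SE 0.251, adjusted p = 0.0658) without sham 3. I/R against sham was at 0.60 (SE 0.631, adjusted p = 0.827), and at 0.12 (SE 0.254, adjusted p = 0.911) without sham 3. The related carriers Slc25a23 and Slc25a24 had log2 fold changes of 0.11 and 0.03 in I/R + rapamycin against I/R.

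Genes of the stress response varied widely within the I/R and sham groups. Fos, an immediate early transcription factor gene, was at 7.60, 8.02 and 13.7 FPKM in I/R + rapamycin, 10.3, 142 and 183 FPKM in I/R, and 20.03, 109 and 288 FPKM in sham libraries. Hspa1b, which encodes a heat shock protein, was at 6.22, 6.10 and 7.09 FPKM in I/R + rapamycin, 5.08, 15.9 and 25.7 FPKM in I/R, and 12.1, 36.7 and 185 FPKM in sham libraries. Both were highest in sham 3, where Slc25a25 was lowest. In I/R 1 and sham 1, where both were lower than in the other libraries of their groups, Slc25a25 was at 52.5 and 55.2 FPKM. Of 7 measured immediate early and stress genes, edgeR called 0 in each comparison. All 7 were fitted below 0 in I/R + rapamycin against each other group. DESeq2 did call Fos and Jun lower when treated kidneys were set against I/R kidneys. With sham as the reference, it called Fos, Hspa1b, Jun and Hspa1a lower in treated kidneys. The edgeR fit without both I/R 1 and sham 3 called Atf3, Egr1 and Jun lower in treated than in I/R kidneys, and 0 against sham. The part of these 7 genes in the Slc25a25 values was not tested.

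**Figure D2:**
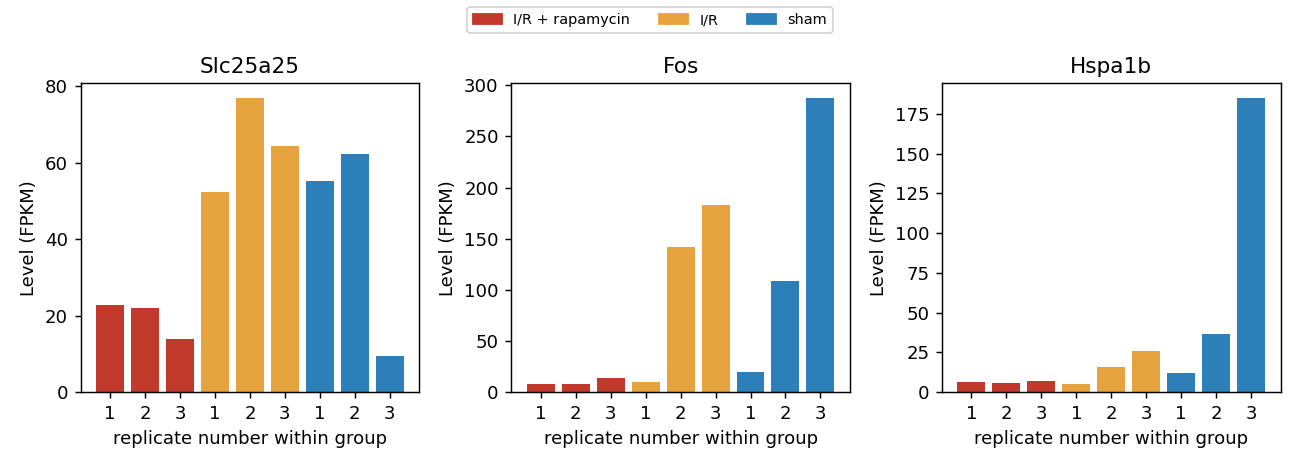
Level (FPKM) of Slc25a25, Fos and Hspa1b in each library; bars are single libraries, grouped as I/R + rapamycin, I/R and sham. Slc25a25 is at 9.52 FPKM in sham 3, the library with 288 FPKM of Fos and 185 FPKM of Hspa1b.

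The effect of injury alone was read from the I/R and sham libraries, where no member passed the test. edgeR called 0 of 37, against 0.0577% of all 17335 genes tested. An unadjusted p under 0.05 was found for 4 members (10.8%, against 9.42% of all genes), 2 higher, against 4.83% of all genes, and 2 lower, against 4.59%. With single libraries left out, that count ranged from 1 without I/R 2 to 5 without I/R 1. It was 2 without sham 1 or without sham 3. DESeq2 called 0 members and 234 genes in all. The median log2 fold change of the members was 0.07, against 0.00 over all genes tested, and 24 of 37 (64.9%) were fitted above 0, against 50.7% of all genes. By FPKM, 5 members did not overlap between the groups (13.5%, against 15.3% of the genes of the table), 2 higher, against 7.59% of those genes, and 3 lower, against 7.73%.

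Among amino acid carriers, Slc25a13, which encodes the aspartate/glutamate carrier citrin, was at 47.8, 57.5 and 52.9 FPKM in I/R and at 41.1, 44.2 and 41.9 FPKM in sham libraries, without overlap. Its log2 fold change was 0.30 (SE 0.109, adjusted p = 0.433 by edgeR). Slc25a45, a carrier related to the amino acid carriers, was at 28.2, 26.9 and 26.0 FPKM in I/R and 31.3, 28.6 and 32.0 FPKM in sham libraries, and its log2 fold change was -0.20 (SE 0.0829, adjusted p = 0.494 by edgeR). I/R 1 lay just under the lowest sham library. Among cofactor carriers, Slc25a42, which takes up coenzyme A, was at 16.6, 15.6 and 15.2 FPKM in I/R and 14.7, 12.4 and 11.04 FPKM in sham libraries (log2 fold change 0.29, SE 0.111, adjusted p = 0.445 by edgeR). Each of these pairs of groups was separate by a small margin. Slc25a51, the mitochondrial NAD carrier, overlapped, at 12.6, 9.63 and 10.4 FPKM in I/R and 9.87, 8.98 and 9.47 FPKM in sham libraries (log2 fold change 0.18, SE 0.0952, adjusted p = 0.597 by edgeR). By the ratio of counts to FPKM it had the longest transcript of the members (12859 bases). With the trend of fold changes over transcript length removed, its log2 fold change was 0.07 (SE 0.0819, adjusted p = 0.791 by edgeR).

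Injury with rapamycin was set against injury alone in the I/R + rapamycin and I/R libraries, so this comparison shares libraries with each of the others. edgeR called 0 of 37 members, against 0.127% of all genes. An unadjusted p under 0.05 was found for 4 members (10.8%, against 16.3% of all genes), 1 higher, against 7.11%, and 3 lower, against 9.14%. With single libraries left out, that count ranged from 2 without I/R + rapamycin 1 or without I/R + rapamycin 2 to 5 without sham 3. DESeq2 called 1 member, Slc25a36, among 702 genes that it called in all. The median log2 fold change was 0.05, against 0.01 over all genes, with 22 of 37 (59.5%) above 0, against 50.8% of all genes. By FPKM, 6 members did not overlap (16.2%, against 26.9% of the genes of the table), 1 higher, against 9.67% of those genes, and 5 lower, against 17.2%.

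Slc25a36, a pyrimidine nucleotide carrier that supplies mitochondrial DNA and RNA synthesis, was at 18.0, 21.0 and 21.2 FPKM in I/R + rapamycin, 30.1, 25.1 and 27.0 FPKM in I/R, and 29.7, 22.3 and 25.0 FPKM in sham libraries. The treated libraries were below all others. Its log2 fold change against I/R was -0.38 (SE 0.103, adjusted p = 0.149 by edgeR and 0.0381 by DESeq2), and against sham it was -0.31 (SE 0.103, adjusted p = 0.238 by edgeR). The copy Slc25a36l1 was at 1.03, 1.02 and 1.45 FPKM in I/R + rapamycin, 1.73, 1.37 and 1.52 FPKM in I/R, and 1.69, 2.11 and 1.64 FPKM in sham libraries; reads could have been split between the copies, so both are uncertain. Slc25a33, the other pyrimidine nucleotide carrier measured, had the opposite sign against sham. It was at 14.4, 12.1 and 9.85 FPKM in I/R + rapamycin, 7.95, 9.97 and 12.9 FPKM in I/R, and 9.12, 9.64 and 6.98 FPKM in sham libraries. The log2 fold change of Slc25a33 against sham was 0.55 (SE 0.211, adjusted p = 0.295 by edgeR).

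In the amino acid group, Slc25a45 was at 28.8, 28.3 and 34.0 FPKM in I/R + rapamycin and 28.2, 26.9 and 26.0 FPKM in I/R libraries, and its log2 fold change was 0.23 (SE 0.0829, adjusted p = 0.225 by edgeR). Its lowest treated library lay just above the highest I/R library. Slc25a12, which encodes the aspartate/glutamate carrier aralar, was at 8.77, 9.71 and 10.0 FPKM in I/R + rapamycin and 12.4, 10.3 and 13.2 FPKM in I/R libraries (log2 fold change -0.26, SE 0.113, adjusted p = 0.285 by edgeR). The isoform partner citrin had a log2 fold change of -0.06 in this comparison.

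Slc25a37, which encodes the iron carrier mitoferrin-1 that supplies haem synthesis in red cell precursors, was at 3.09, 3.51 and 5.13 FPKM in I/R + rapamycin, 5.39, 5.597 and 5.15 FPKM in I/R, and 4.47, 3.58 and 5.30 FPKM in sham libraries. The log2 fold change against I/R was -0.40 (SE 0.192, adjusted p = 0.334 by edgeR), and the highest treated library lay just under the lowest I/R library. Of 6 erythrocyte markers 3 were measured, and their summed CPM was 84.8 to 524 in I/R + rapamycin, 1240 to 3330 in I/R and 245 to 2550 in sham libraries. Their part in the Slc25a37 values was not tested. The other mitoferrin, Slc25a28, averaged 26.1 ± 1.78 FPKM in I/R + rapamycin, 24.4 ± 1.70 FPKM in I/R and 24.3 ± 1.94 FPKM in sham (SD, n = 3 each).

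**Figure D3:**
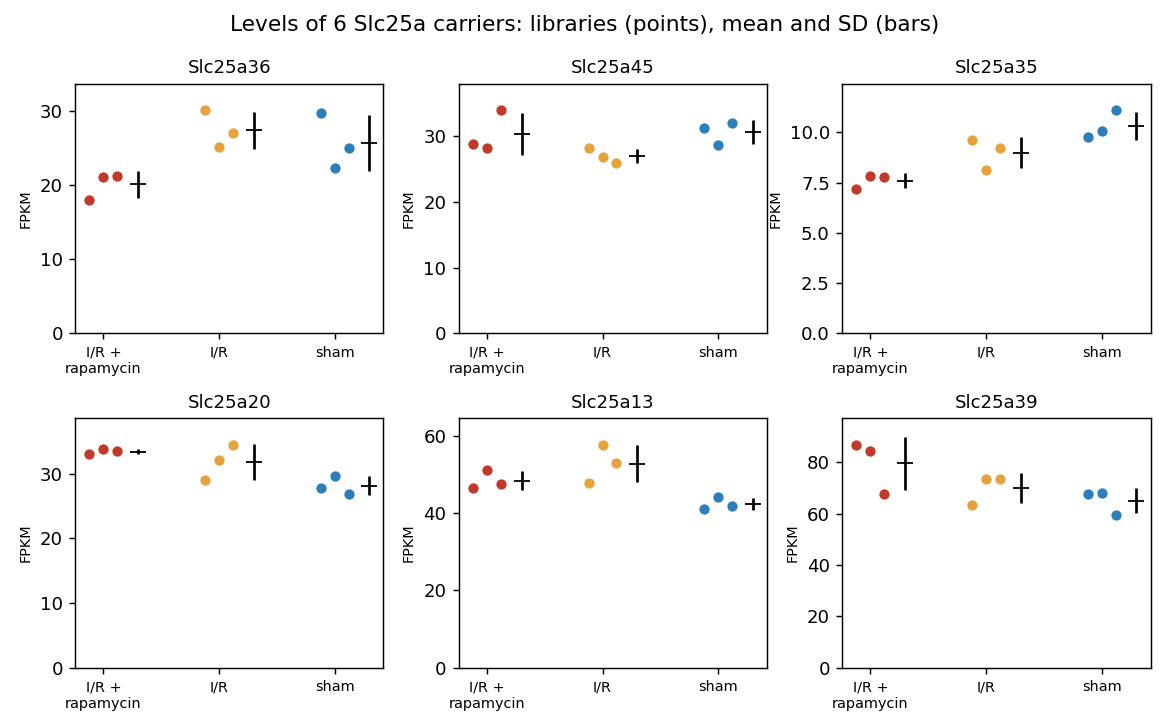
Levels (FPKM) of 6 Slc25a members; points are libraries, and the bar beside each group shows its mean and SD (n = 3). Slc25a35 is at 7.17 to 7.84 FPKM in I/R + rapamycin, below every sham library.

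Treated kidneys were then set against sham kidneys. edgeR called 0 of 37 members, against 0.156% of all genes. An unadjusted p under 0.05 was found for 7 members (18.9%, against 13.8% of all genes), 5 higher, against 6.06%, and 2 lower, against 7.75%. The count rested on single libraries, being 2 if I/R + rapamycin 1 was left out, 4 if I/R + rapamycin 2 was, 12 if I/R + rapamycin 3 was, and 3 if sham 1 was. DESeq2 called 1 member, Slc25a35, among 567 genes that it called in all. The median log2 fold change was 0.11, against 0.00 over all genes, with 26 of 37 (70.3%) above 0, against 50.2% of all genes. By FPKM, 8 members did not overlap (21.6%, against 20.8% of the genes of the table), 5 higher, against 7.9% of those genes, and 3 lower, against 12.9%. The 5 higher were Slc25a1, Slc25a13, Slc25a20, Slc25a33 and Slc25a46, and the 3 lower were Slc25a35, Slc25a36 and Slc25a36l1.

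Slc25a35, an inner-membrane carrier whose substrate is not settled, was at 7.17, 7.84 and 7.76 FPKM in I/R + rapamycin, 9.62, 8.14 and 9.24 FPKM in I/R, and 9.79, 10.1 and 11.1 FPKM in sham libraries. The 3 groups were stepwise, with no overlap between any pair. Its log2 fold change was -0.40 against sham (SE 0.102, adjusted p = 0.158 by edgeR and 0.0256 by DESeq2), and that of I/R against sham was -0.22 (SE 0.102, adjusted p = 0.539 by edgeR). These 2 comparisons share the sham libraries.

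Slc25a20, the carnitine-acylcarnitine carrier that brings fatty acids into mitochondria for oxidation, was at 33.0, 33.8 and 33.5 FPKM in I/R + rapamycin, 29.0, 32.1 and 34.4 FPKM in I/R, and 27.8, 29.7 and 26.9 FPKM in sham libraries. The treated libraries were above all sham libraries, and the log2 fold change was 0.29 (SE 0.0940, adjusted p = 0.222 by edgeR). Slc25a39, which imports glutathione, was at 86.8, 84.6 and 67.8 FPKM in I/R + rapamycin, 63.5, 73.4 and 73.6 FPKM in I/R, and 67.7, 68.2 and 59.4 FPKM in sham libraries. Its log2 fold change was 0.34 against sham (SE 0.130, adjusted p = 0.292 by edgeR) and 0.25 against I/R (SE 0.130, adjusted p = 0.368 by edgeR). Slc25a38, a glycine carrier of haem synthesis, was at 16.2, 16.8 and 12.0 FPKM in I/R + rapamycin and 12.2, 12.3 and 10.5 FPKM in sham libraries, which overlapped (log2 fold change 0.41, SE 0.157, adjusted p = 0.296 by edgeR). Slc25a46, an outer-membrane protein of mitochondrial fusion and fission, was at 13.3, 14.3 and 14.1 FPKM in I/R + rapamycin and 12.0, 13.2 and 12.6 FPKM in sham libraries, and its log2 fold change was 0.19 (SE 0.0839, adjusted p = 0.359 by edgeR). The kidney mitochondrial carrier Slc25a30 was the only uncoupling-protein-like gene measured under an Slc25a symbol. It averaged 22.2 ± 3.26 FPKM in I/R + rapamycin, 25.2 ± 4.59 FPKM in I/R and 23.1 ± 1.498 FPKM in sham (SD, n = 3 each). The uncoupling protein gene Ucp2, listed under its own symbol, is not among the 37 members. Its level was 25.8, 19.7 and 18.45 FPKM in I/R + rapamycin, 21.2, 19.9 and 27.0 FPKM in I/R, and 18.51, 13.5 and 17.15 FPKM in sham libraries. The I/R libraries were above all sham libraries (log2 fold change 0.45, SE 0.160, adjusted p = 0.419 by edgeR).

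**Figure D4:**
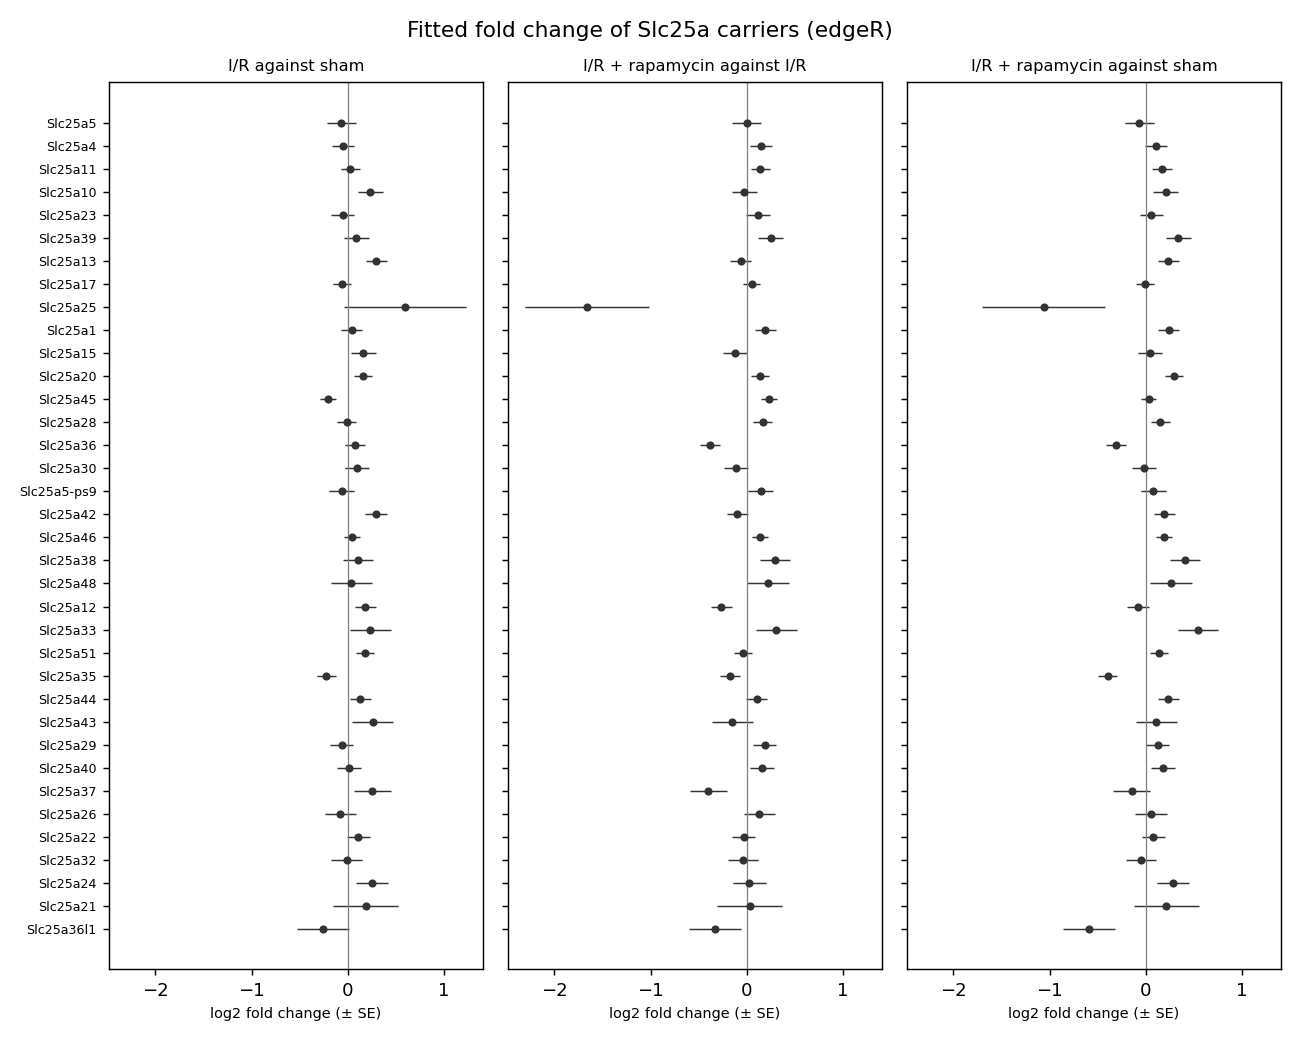
Fitted log2 fold change of 36 Slc25a members in the 3 comparisons, ordered by mean FPKM; points are edgeR estimates and bars their SE. Outside Slc25a25, at -1.66 against I/R, and Slc25a36l1, at -0.59 against sham, the points lie between -0.40 and 0.55.

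The amino acid group had 9 measured members, with Slc25a45 and Slc25a48 counted in it. Of these, 8 were fitted above 0 in I/R + rapamycin against sham, against 50.2% of all genes, with a median log2 fold change of 0.13. An unadjusted p under 0.05 was found for 1 (11.1%, against 13.8% of all genes). In I/R against sham 7 of the 9 were above 0, and in I/R + rapamycin against I/R 5 were. Of 8 measured nucleotide and cofactor carriers, 4 were above 0 in I/R + rapamycin against sham, with a median of 0.03. Of 5 dicarboxylate-group members, with Slc25a35 counted in, 4 were above 0 against sham with a median of 0.21. In I/R + rapamycin against I/R 3 of these 5 were above 0. None of these groups held a member called by edgeR in any comparison. The 9 members not yet described overlapped between the groups in every comparison. They were the ornithine carrier Slc25a15, the glutamate carrier Slc25a22, the S-adenosylmethionine carrier Slc25a26, the basic amino acid carrier Slc25a29, the folate or FAD carrier Slc25a32, the glutathione carrier Slc25a40, the branched-chain amino acid carrier Slc25a44, and Slc25a43 and Slc25a48. Their means over 9 libraries ran from 3.01 FPKM for Slc25a32 to 36.7 FPKM for Slc25a15. Their fitted log2 fold changes lay between -0.08 and 0.26 in I/R against sham, and between -0.15 and 0.23 in I/R + rapamycin against I/R. With I/R + rapamycin set against sham they lay between -0.05 and 0.26.

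Genes that serve the same transport were read from lists drawn up with earlier results of these data known. Of 16 measured other inner-membrane carriers and channels, edgeR called 0 in each comparison. Sfxn5, a sideroflexin of the inner membrane, was at 4.43, 4.35 and 4.82 FPKM in I/R + rapamycin, 6.82, 5.67 and 5.65 FPKM in I/R, and 8.27, 6.91 and 8.02 FPKM in sham libraries, and against sham its log2 fold change in treated kidneys was -0.72 (SE 0.128, adjusted p = 0.0744 by edgeR). DESeq2 and limma on both FPKM scales did call Sfxn5 in this comparison. Carrier proteins are made in the cytosol and imported through the TOM complex, the small TIM chaperones and the TIM22 complex. Of 11 measured genes of this import route, 10 were fitted above 0 in I/R + rapamycin against I/R, with a median log2 fold change of 0.34, and 8 were higher at an unadjusted p under 0.05, against 7.11% of all genes in that direction. This count was 4 when either I/R + rapamycin 1 or I/R + rapamycin 2 was left out, and 5 when either I/R 1 or I/R 3 was. It was 9 without I/R + rapamycin 3. With any single library left out, 10 or 11 of the 11 were above 0. edgeR called 0 of them and DESeq2 called 2, Timm22 and Timm9, among 702 genes that it called in all. Timm22, the channel that inserts carriers into the inner membrane, was at 9.72, 9.79 and 9.45 FPKM in I/R + rapamycin and 7.75, 7.71 and 7.23 FPKM in I/R libraries, and its log2 fold change was 0.42 (SE 0.0988, adjusted p = 0.124 by edgeR). In this comparison fold changes were lower for longer transcripts, with length taken from the ratio of counts to FPKM (Spearman correlation of -0.483 across 11232 genes, which are not independent replicates). The import genes had a median implied length of 1788 bases, against 3202 for all genes with one and 2856 for the Slc25a members. With the length trend removed, the median of the import genes was 0.19 and 5 were higher at an unadjusted p under 0.05. The share of all genes in that fit is not given here. In the main edgeR fit of I/R against sham, 1 of the 11 import genes was above 0. Their median there was -0.15, and 2 were lower at an unadjusted p under 0.05, against 4.59% of all genes in that direction. In I/R + rapamycin against sham, 10 were above 0 with a median of 0.17. There 1 was higher at an unadjusted p under 0.05, against 6.06% of all genes in that direction. Of 10 measured genes of mitochondrial content and biogenesis, edgeR called 0 in each comparison, and 3 were fitted above 0 in I/R + rapamycin against I/R, with a median log2 fold change of -0.04. Ppargc1a, which encodes a coactivator of mitochondrial biogenesis, was at 6.51, 8.48 and 9.17 FPKM in I/R + rapamycin, 10.6, 9.32 and 12.98 FPKM in I/R, and 10.3, 7.39 and 11.1 FPKM in sham libraries. The treated libraries were below all I/R libraries, and its log2 fold change against I/R was -0.38 (SE 0.168, adjusted p = 0.302 by edgeR). Cs, which encodes the matrix enzyme citrate synthase, was at 55.8, 57.3 and 57.6 FPKM in I/R + rapamycin and 60.6, 60.5 and 62.6 FPKM in I/R libraries, also without overlap, and its log2 fold change was -0.04 (SE 0.0787, adjusted p = 0.849 by edgeR).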

How the data were processed

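Counts and FPKM of 9 rat kidney libraries were used. The authors deposited raw counts for all genes. Their deposited FPKM table lists 11235 genes, and in the values every one of these reaches 1 FPKM in 8 or 9 libraries. Rnor_6.0 is the build in the submitters' processing notes, which list DESeq2, StringTie, HISAT2 and cutadapt without versions. The sources used here do not give the annotation, the strand setting or how reads were counted. Levels are the deposited FPKM. Deposited counts were tested in R 4.3.3 with edgeR 4.0.16 (TMM, default filter, robust quasi-likelihood, all 9 libraries in one fit, no covariates), with Benjamini-Hochberg adjustment over 17335 genes and calls at 0.05, and the procedure was first checked on simulated counts. Standard errors are the log2 fold change over the root of the F statistic. DESeq2 1.42.0, limma 3.58.1 on log2(FPKM + 1) or log2(FPKM + 0.1), other filters and scalings, a length-trend offset, a replicate block and left-out libraries were alternatives. Implied length is the count over FPKM and total count.

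Named with statistics were members called in any comparison, the 6 members with the smallest p per comparison, the 5 most abundant, the 3 least abundant and 1 member of each role group not yet named; 1 member that the rule names is not reported here and is left out of the figures, though it is in all counts. Members and lists were chosen with earlier results of these data known. Outside this rule, Slc25a46, Slc25a28, Slc25a1, Slc25a17, Slc25a5-ps9, Ucp2, Fos, Hspa1b and Cs were chosen after their values were seen. Coordinates of the files are not printed, since their build is not settled; promoter windows were matched by symbol to RefSeq.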

Additional observations from a re-analysis of the deposited data

How the results depend on the processing

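The fold changes of the 6 members with the smallest p in each comparison kept their sign under every alternative. Those of other members near 0 did not all do so, since the number of the 37 fitted above 0 ranged from 21 to 28 in I/R against sham, 19 to 24 with rapamycin set against I/R, and 24 to 30 with rapamycin set against sham. The number of Slc25a members called was 0 in all 3 comparisons and in I/R against sham it was 0 under every alternative. In I/R + rapamycin against I/R it was 1 by DESeq2 (Slc25a36), 0 to 1 with single libraries left out (Slc25a25 without sham 3) and 1 without both I/R 1 and sham 3 (Slc25a25, log2 fold change -1.81, adjusted p = 0.0179). In I/R + rapamycin against sham it was 1 by DESeq2 (Slc25a35), 0 with any single library left out and 1 without both (Slc25a25, adjusted p = 0.0385). Sham 3 was the lowest library for Slc25a25, so fits without it are no independent support for that member.

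In the order I/R against sham, I/R + rapamycin against I/R and I/R + rapamycin against sham, edgeR called 10, 22 and 27 of all genes. DESeq2 called 234, 702 and 567, and the fit without both libraries 67, 128 and 104. With single libraries left out the counts ranged from 0 to 36, 0 to 47 and 3 to 47. The fit of the 6 libraries compared called 2 and 6 in the first and second comparisons. limma called 22 and 12 on log2(FPKM + 1) and 25 and 11 on log2(FPKM + 0.1) in these, and removal of the length trend gave 25 in the first. The cause of these changes was not tested. With the replicate number as a block, 1, 1 and 7 genes and 0 members were called. The deviations of same-numbered libraries from their group means had correlations of -0.213 to 0.136 over 9 pairs. With 3 libraries per group these cannot show whether same-numbered libraries share an animal, a day or a batch.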

Other observations

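Of 11234 other genes of the FPKM table, Errfi1, which encodes a feedback inhibitor of the EGF receptor, ranked first in likeness to Slc25a25 (Pearson correlation of log2(FPKM + 0.1) over 9 libraries, used here only to rank). It was at 167, 203 and 160 FPKM in I/R + rapamycin, 273, 294 and 276 FPKM in I/R, and 266, 248 and 147 FPKM in sham libraries. Like Slc25a25, it was lowest in sham 3 and lower in all treated libraries than in all I/R libraries. The gene was chosen after its values were seen, and the 9 libraries share the spread described for the stress genes.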
